A study of Mus musculus with 4 samples.

Results

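Ctla4 and 9 of its relatives in T cell costimulation were followed in medullary thymic epithelial cells with and without Aire. The members were taken by name from the CD28 receptor family (Ctla4, Cd28, Icos, Pdcd1), from the B7 ligand family (Icosl, Cd80, Cd86, Cd274, Pdcd1lg2) and from the tumour necrosis factor receptor family (Cd40). Ctla4 was picked because it had the largest difference among the transcripts that were lower in WT, and the other 9 genes were picked as its ligands and relatives. The 10 genes carry 14 of the 30794 RefSeq IDs of the count tables, which hold 23003 named genes in all. Cd40 has 5 of these IDs and each other member has 1.

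The 4 RNA-seq libraries were made from mTEChi, the mature subset of medullary thymic epithelium, which carries much MHC class II. Cells without CD45 and Ly51 and with high I-A/E were sorted from thymi of 4-week-old mice. Of the 2 libraries labelled WT and the 2 labelled Aire-KO, 1 of each genotype belongs to a first experiment and 1 to its replicate. Each library came from a pool of 4 mice, so that differences between single mice cannot be seen. The WT mice were purchased C57BL/6 animals, and the Aire-KO mice carried the germline allele B6.129S2-Aire tm1.1Doi/J on the same background, a knockout of the whole animal, and came from another source. The sources used here name no treatment and no sex. The p-values below measure the spread between pools, which with genotype alone includes the difference between the experiments.

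Aire drives the expression of tissue-restricted genes in mTEChi, which show the encoded antigens to developing thymocytes. A thymocyte also reads costimulatory signals. CD80 and CD86 on the presenting cell bind CD28, which amplifies T cell receptor signals, and CTLA-4, which binds the same ligands more tightly, restrains the response and can strip the ligands from other cells. ICOS with its ligand ICOSL forms a parallel pair, PD-1 is an inhibitory receptor for PD-L1 (Cd274) and PD-L2 (Pdcd1lg2), and CD40 receives help signals that promote mTEC maturation. CTLA-4, CD28, ICOS and PD-1 are known as receptors of T cells, whereas the ligands and CD40 are known on antigen-presenting cells, mTEChi among them.

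The libraries held between 111077552 and 242862323 counts. Aire itself had 398 and 307 CPM (counts per 1e+06 counts, on TMM effective library sizes, which even out composition between libraries) in the WT libraries. The Aire-KO libraries had 1381 and 765 CPM, and each pair of values is given in the order of the first experiment and its replicate. These counts cover all exons together and do not show whether the deleted part was missing, so they do not check the labels, and every direction below rests on the labels. Of 26790 RefSeq IDs tested with edgeR's quasi-likelihood test, 1495 (5.58%) were higher in WT and 69 (0.258%) lower at an adjusted p under 0.05. The markers Cd74 (6484 and 8874 CPM in WT, 11716 and 14297 in Aire-KO) and H2-Aa (3130.3 and 6365 CPM in WT, 5932 and 6633 in Aire-KO), both of MHC class II presentation, were abundant in every library.

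Ctla4 (NM_009843), which lies in the mm9 genome at chr1:60965869-60972676 on the plus strand in 4 exons, stood at 12.4 and 10.9 CPM in WT and at 221 and 112 CPM in Aire-KO. Both Aire-KO libraries lay far above both WT libraries. The raw counts were 2713 and 1299 in WT and 32175 and 25653 in Aire-KO, so counting error is small beside the difference. Within the experiments the level in Aire-KO was 17.9 and 10.2 times that in WT. The fitted log2 fold change, WT over Aire-KO, was -3.84 (standard error 0.50, n = 2 libraries per genotype), and without the Aire-KO library of the first experiment it was -3.26. It is given as a description with no test, since Ctla4 was chosen on this contrast. The next values among the called transcripts lower in WT were -3.66 for 4931408C20Rik, -3.26 for BC018473 and -3.16 for I830077J02Rik.

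**Figure D1:**
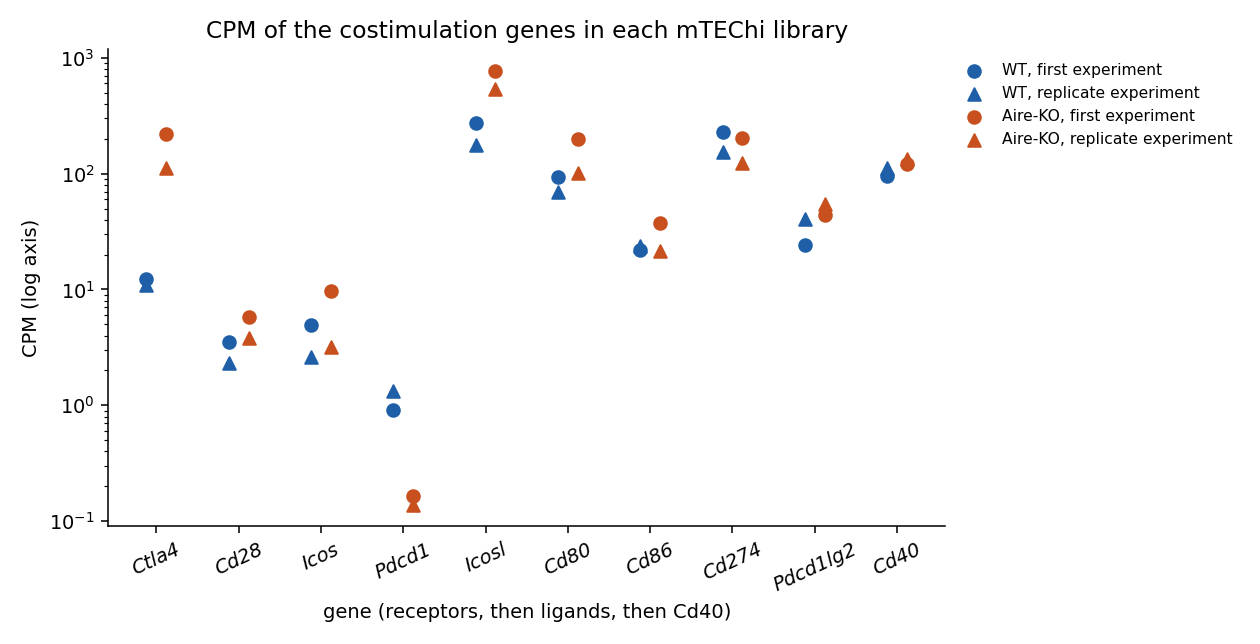
CPM on a log axis (y) of the 10 costimulation genes (x), with 1 point for each library, in blue for WT, in orange for Aire-KO, as circles for the first experiment and as triangles for the replicate experiment. Ctla4 lay at 10.9 to 12.4 CPM in WT and at 112 to 221 CPM in Aire-KO, whereas Icos, Cd86 and Cd274 had overlapping libraries.

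The reads of Ctla4 covered the whole transcript in both genotypes. Per length, as RPKM (reads per kb and per 1e+06 counts) on TMM sizes, the coding exons before the last one had 5.59 and 4.85 RPKM in WT and 114.6 and 62.8 RPKM in Aire-KO. The last exon, with most of the 3'UTR, had 7.07 and 6.25 RPKM in WT and 118.6 and 56.7 RPKM in Aire-KO. The 5'UTR, which is only 146 bp long, had 2.78 and 2.64 RPKM in WT and 50.7 and 27.6 RPKM in Aire-KO. Within the experiments the ratio of Aire-KO to WT was 18.2 and 10.5 for the 5'UTR, 20.5 and 12.9 for the earlier coding exons and 16.8 and 9.07 for the last exon. The share of Ctla4 reads in the last exon was 70.7% and 70.8% in WT and 66.6% and 63.6% in Aire-KO. No other gene of the mm9 annotation has exons that overlap those of Ctla4.

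Ctla4 sits between Cd28 and Icos, 135.7 kb beyond the end of Cd28 and 62.1 kb before the start of Icos on the same strand. Cd28 (chr1:60803202-60830203), which encodes the activating receptor for the ligands of CTLA-4, had 3.49 and 2.32 CPM in WT and 5.75 and 3.80 CPM in Aire-KO, without overlap of the genotypes. Its log2 fold change was -0.72 (standard error 0.48, adjusted p = 0.508 by edgeR), and it was 1.65 and 1.64 times as high in Aire-KO within the experiments. Icos (chr1:61034771-61057164), an activating receptor of follicular and regulatory T cells, had 4.96 and 2.59 CPM in WT and 9.76 and 3.17 CPM in Aire-KO. Here the libraries overlapped, and the log2 fold change of -0.77 (standard error 0.65, adjusted p = 0.618 by edgeR) became 0.25 without the Aire-KO library of the first experiment. The parts of the Icos transcript also differed between the experiments, since its coding exons before the last stood in Aire-KO at 2.70 and 0.588 times the WT level. The neighbours of Ctla4 thus had within-experiment ratios between 1.22 and 1.97, beside 17.9 and 10.2 for Ctla4.

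Pdcd1 (chr1:95934884-95949130, minus strand), which encodes the inhibitory receptor PD-1, went the other way. It had 0.904 and 1.33 CPM in WT and 0.165 and 0.139 CPM in Aire-KO, from 198 and 158 reads against 24 and 32. Both WT libraries lay above both Aire-KO libraries. The log2 fold change was 2.87 (standard error 0.69), with an adjusted p of 0.0636 by edgeR, so the difference did not pass the threshold with genotype alone. In a fit that adds a replicate block for the experiment the adjusted p was 0.0188, with DESeq2 it was 0.00287, and over all alternatives it ran from 0.00287 to 0.405. On leaving out each library in turn, the log2 fold change ran from 2.58 to 3.04.

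Among the 4 receptors of the family, the share of Ctla4 in the summed RPKM was 70.0% and 74.6% in WT and 96.3% and 96.7% in Aire-KO. Ctla4 exceeded Cd28 per length by a factor of 7.93 and 10.3 in WT and of 85.1 and 65.1 in Aire-KO. Since Ctla4 was chosen on this contrast, a rise of its share and of this ratio goes with the choice. Both are descriptions. In T cells the 4 receptors are known to occur with the T cell receptor complex, so markers of T cells were read beside them. Of 16 markers of thymocytes and T cells, 14 had a lower CPM in Aire-KO than in WT in both experiments. The share of all IDs with this direction was not computed, so that count is a description. None of the 16 passed edgeR's test, beside 5.84% of all IDs. At an unadjusted p under 0.05 there were 5, beside 20.8% of all IDs, and DESeq2 called 2 (Cd3g and Dntt), beside 15.1%. The median log2 fold change of the 16 was 1.22, beside -0.031 over all RefSeq IDs. The summed level of the 16 was 60.5 and 79.0 CPM in WT and 52.9 and 49.2 CPM in Aire-KO. None of the 16 was at 0 in all libraries, and with the replicate block 6 were called, all higher in WT, beside 16.5% of all IDs called higher in WT in that fit.

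The 2 markers with the highest mean over the 4 libraries, Cd4 and Cd247, were also the 2 of the 16 that were not lower in Aire-KO in both experiments. Cd4, a coreceptor, had 10.7 and 16.3 CPM in WT and 18.0 and 22.4 CPM in Aire-KO, and Cd247, the zeta chain of the T cell receptor, had 9.88 and 5.17 CPM in WT and 16.1 and 5.31 CPM in Aire-KO. Lck, the kinase bound to the coreceptors, had 8.27 and 16.5 CPM in WT and 4.07 and 7.10 CPM in Aire-KO, and Cd3g, another chain of the receptor complex, had 2.56 and 4.56 CPM in WT and 0.633 and 0.552 CPM in Aire-KO. Ctla4 is also a constitutive gene of regulatory T cells. Their 8 markers summed to 103 and 73.1 CPM in WT and to 108 and 88.5 CPM in Aire-KO, ranges that overlap. Foxp3, the factor that defines these cells, had 3.57 and 3.97 CPM in WT and 3.45 and 6.28 CPM in Aire-KO. Il2ra had 66.1 and 40.6 CPM in WT and 64.5 and 52.8 CPM in Aire-KO, and Tnfrsf4 had 8.27 and 10.9 CPM in WT and 17.9 and 16.6 CPM in Aire-KO. Only Gpr83 of the 8 passed edgeR's test, higher in WT as 5.58% of all IDs were (2.41 and 1.36 CPM against 0.0138 and 0.0435, adjusted p = 0.0239). Lck, Cd3g, Dntt, Foxp3 and Gpr83 are named outside the rule for named genes. In these bulk samples, a change in the number of cells of a type and a change in the RNA of each cell cannot be told apart.

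**Figure D2:**
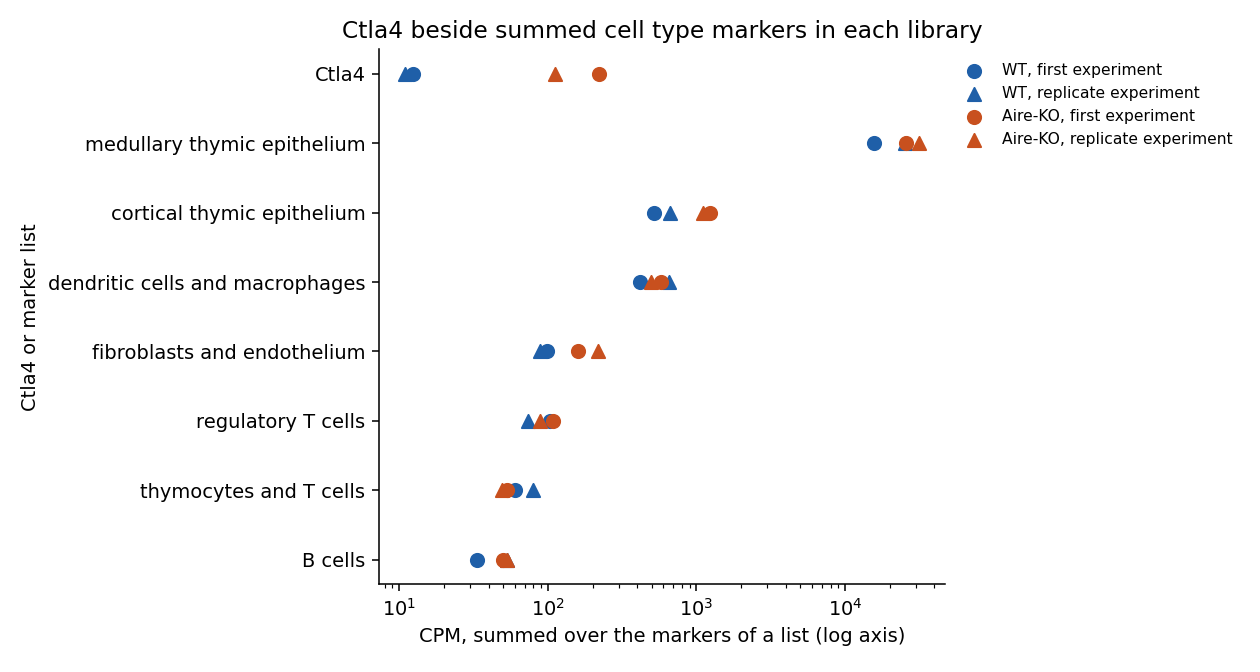
CPM on a log axis (x) of Ctla4 and of the summed markers of 7 cell types (y), with 1 point for each library, in blue for WT, in orange for Aire-KO, as circles for the first experiment and as triangles for the replicate experiment. The T cell markers summed to 49.2 to 79.0 CPM over the libraries and the regulatory T cell markers to 73.1 to 108 CPM, beside 10.9 to 221 CPM for Ctla4.

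Markers of other cells were read beside 5.58% of all IDs that edgeR called higher in WT and 0.258% lower. The 13 markers of dendritic cells and macrophages, which also carry B7 ligands, summed to 415 and 653 CPM in WT and to 581 and 492 CPM in Aire-KO. Of them, 3 were called and higher in WT (Itgam, Adgre1 and Cd209a). The median log2 fold change of the 13 was 1.21, close to the 1.22 of the T cell markers. In both experiments, 8 of the 13 had a lower CPM in Aire-KO. In either direction, 7 had an unadjusted p under 0.05 by edgeR (20.8% of all IDs), and DESeq2 called 6 (15.1%). The most abundant of the 13 were Lyz2 (252.5 and 489 CPM in WT, 326 and 345 CPM in Aire-KO) and Ccr7 (94.5 and 84.8 CPM in WT, 181 and 91.1 CPM in Aire-KO). The 8 B cell markers summed to 33.3 and 53.2 CPM in WT and 50.2 and 53.3 CPM in Aire-KO, led by Cd79b (13.9 and 27.2 CPM in WT, 20.3 and 24.1 CPM in Aire-KO) and Blk (7.47 and 13.9 CPM in WT, 21.5 and 23.8 CPM in Aire-KO), and 1 of the 8, Cd22, was called and higher in WT. The 9 markers of fibroblasts and endothelium summed to 98.8 and 89.2 CPM in WT and 161 and 217 CPM in Aire-KO, led over the 4 libraries by Col3a1 (17.7 and 14.5 CPM in WT, 46.8 and 64.7 CPM in Aire-KO) and Pdgfrb (28.4 and 26.8 CPM in WT, 35.4 and 22.6 CPM in Aire-KO), of which Pdgfrb was the higher in both WT libraries, with 3 called and lower in WT (Col3a1, Col1a2 and Dpt). The 7 cortical epithelial markers summed to 522 and 664 CPM in WT and to 1228 and 1103 CPM in Aire-KO, led by Tbata (243 and 336 CPM in WT, 608 and 696 CPM in Aire-KO) and Ccl25 (203 and 233 CPM in WT, 517 and 329.8 CPM in Aire-KO), with 1, Enpep, called and higher in WT. With the replicate block 3 others were called lower in WT (Tbata, Ccl25 and Ly75, adjusted p 0.0018 to 0.0499), and DESeq2 called Tbata as well (adjusted p = 0.0439). None of the 14 medullary markers was called with genotype alone, 3 were called lower in WT with the replicate block (Cd74, Fezf2 and Tnfrsf11a, adjusted p 0.0027 to 0.0498), and their sum was 15615 and 25294 CPM in WT and 25823 and 31586 CPM in Aire-KO. In the other lists the block called 4 markers of dendritic cells and macrophages higher and 2 lower in WT, 2 of B cells higher and 1 lower, 2 of regulatory T cells higher and 1 lower, and 4 of fibroblasts and endothelium lower, beside 16.5% of all IDs higher and 10.4% lower. The medullary, cortical and fibroblast sums were higher in both Aire-KO libraries than in both WT libraries, as Ctla4 was. Cd74 and H2-Aa made up most of the medullary sum, and Tbata and Ccl25 most of the cortical sum. The median log2 fold changes of these lists were 0.07 and -0.11, beside -1.38 for fibroblasts and endothelium. In both experiments, 5 of the 14 medullary and 3 of the 7 cortical markers had a lower CPM in Aire-KO. The part of these cells in the values of the costimulation genes was not tested.

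Of the 9 members other than Ctla4, edgeR called 0, beside 5.84% of all RefSeq IDs tested. At an unadjusted p under 0.05 there were 2, Pdcd1 and Icosl, beside 20.8% of all IDs, and DESeq2 called 2 as well, Icosl lower in WT (2.25% of all IDs) and Pdcd1 higher (12.8%), 15.1% of all IDs in both directions together. With the replicate block 4 were called, beside 26.9% of all IDs. These were Icosl, Cd80 and Pdcd1lg2, lower in WT as 10.4% of all IDs were, and Pdcd1, higher in WT as 16.5% were. By libraries alone, the genotypes did not overlap in 6 of the 9, beside 49.3% of all IDs. Of these, 5 were lower in WT (Cd28, Icosl, Cd80, Pdcd1lg2 and Cd40), beside 20.9% of all IDs, and 1 was higher (Pdcd1), beside 28.4%. The median log2 fold change of the 9 was -0.62, beside -0.031 over all RefSeq IDs, with 7 values below 0 and 2 above it. The share of all IDs below 0 was not computed, so that count is a description. The values of Icos, Cd86 and Cd274 changed sign on leaving out a library.

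**Figure D3:**
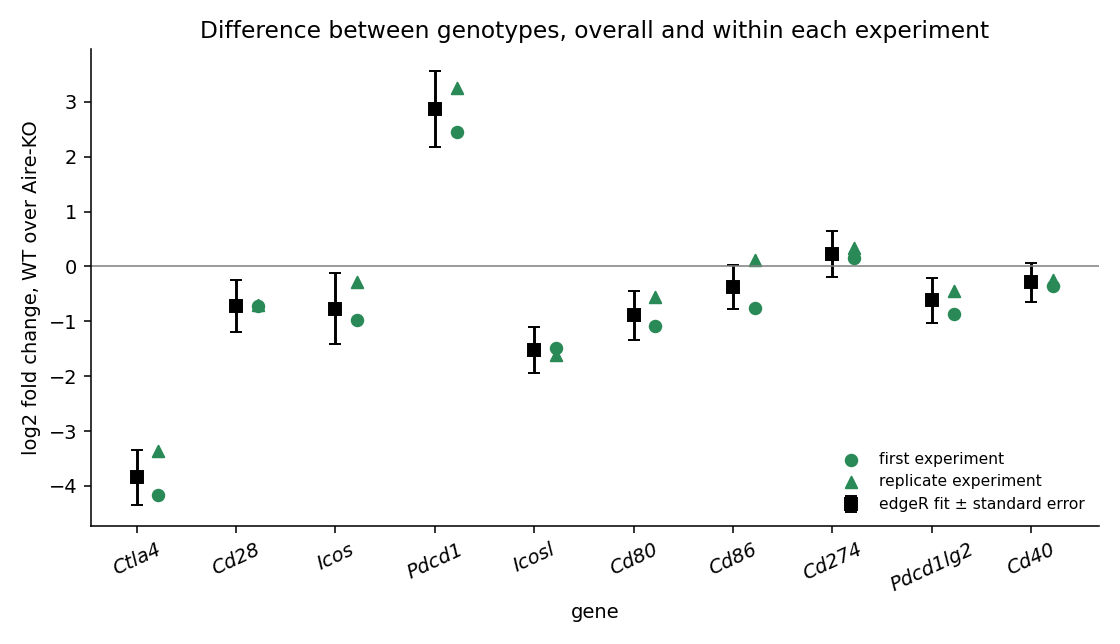
log2 fold change, WT over Aire-KO (y), of the 10 costimulation genes (x), as black squares with the standard error of the edgeR fit and as green points for the ratio within the first experiment (circles) and the replicate experiment (triangles). Ctla4 was at -3.84 and Pdcd1 at 2.87, and the other 8 genes were between -1.53 and 0.23.

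Icosl (chr10:77532105-77542270), the ligand of ICOS, had the highest mean RPKM of the members in both genotypes and, of the ligands, the log2 fold change farthest from 0. It had 275 and 177 CPM in WT and 767 and 540.2 CPM in Aire-KO, with both Aire-KO libraries above both WT libraries. The log2 fold change was -1.53 (standard error 0.42), and its adjusted p was 0.0874 by edgeR with genotype alone, 2.86e-04 with the replicate block and 0.00737 with DESeq2, within a range of 2.86e-04 to 0.430 over the alternatives. On leaving out each library in turn, the log2 fold change ran from -1.95 to -1.23. Within the experiments, Aire-KO over WT came to 2.79 and 3.05. It was above 2 in each part of the transcript, with 3.27 and 2.73 for the coding exons before the last and 2.59 and 3.25 for the last exon.

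Icosl lies next to Aire on chromosome 10. Dnmt3l lies between them, 5.7 kb from Icosl, and Aire is 25.7 kb from Icosl. Dnmt3l, which encodes a cofactor of DNA methyltransferases, had 19.3 and 21.9 CPM in WT and 107 and 119 CPM in Aire-KO, and it was called lower in WT (log2 fold change -2.46, standard error 0.37, adjusted p = 0.0247 by edgeR). For Aire the log2 fold change was -1.61 (standard error 0.44, adjusted p = 0.0885 by edgeR, 4.48e-04 with the replicate block, 4.48e-04 to 0.302 over the alternatives). The gene extents of Aire and Dnmt3l overlap by 1664 bp on opposite strands, and the libraries do not mark strand, so that reads in the overlap cannot be assigned to either gene. Gatd3a, on the other side of Icosl, had 24.1 and 38.4 CPM in WT and 35.2 and 58.2 CPM in Aire-KO, with overlapping libraries (log2 fold change -0.58, standard error 0.44, adjusted p = 0.563). The name of the Aire allele marks its origin in a 129S2 strain, and the WT mice came from another source, so that the strain origin of the segment around Aire and the loss of Aire cannot be told apart for these neighbours.

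Cd80 (chr16:38459013-38487015), which binds both CD28 and CTLA-4, had 93.1 and 69.2 CPM in WT and 199 and 101 CPM in Aire-KO, with no overlap. Its log2 fold change was -0.89 (standard error 0.45), with an adjusted p of 0.352 by edgeR and of 0.0137 with the replicate block (0.0137 to 0.903 over the alternatives). Cd86 (chr16:36603955-36666163, minus strand), the other ligand of the same receptors, had 22.1 and 23.5 CPM in WT and 37.6 and 21.6 CPM in Aire-KO. The libraries overlapped, the experiments went opposite ways (1.70 and 0.920 times the WT level in Aire-KO), and the log2 fold change was -0.37 (standard error 0.40, adjusted p = 0.713 by edgeR). Whether Cd80 and Cd86 differed in their response was not tested. Adprh and Timmdc1, the genes beside Cd80, had log2 fold changes of -0.21 (standard error 0.46) and -0.14 (standard error 0.40), and neither was called.

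Cd274 (chr19:29441945-29462585), which encodes PD-L1, had 227 and 155 CPM in WT and 203 and 123 CPM in Aire-KO. The genotypes overlapped, and the log2 fold change was 0.23 (standard error 0.42, adjusted p = 0.855 by edgeR), which turned to -0.14 without the WT library of the first experiment and to -0.10 without the Aire-KO library of the replicate experiment. Pdcd1lg2 (chr19:29485409-29545647), which encodes PD-L2 and starts 22.8 kb after the end of Cd274, had 24.0 and 40.2 CPM in WT and 43.7 and 54.8 CPM in Aire-KO. Its log2 fold change was -0.62 (standard error 0.41), with an adjusted p of 0.495 by edgeR and of 0.0358 with the replicate block (0.0358 to 0.846 over the alternatives). Plgrkt, on the other side of Cd274, had 38.8 and 49.8 CPM in WT and 27.4 and 26.3 CPM in Aire-KO (log2 difference 0.72 with standard error 0.35, adjusted p = 0.324 by edgeR and 0.0262 with the replicate block, 0.0262 to 0.908 over the alternatives).

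Cd40 (NM_011611, chr2:164881136-164897154), a receptor whose ligand comes from T cells, had 95.6 and 112 CPM in WT and 122 and 133 CPM in Aire-KO. Its 5 IDs, which share most reads, had log2 fold changes of -0.29 to -0.30 (standard error 0.35 each, adjusted p 0.748 to 0.757 by edgeR). Both Aire-KO libraries lay above both WT libraries, and the difference was smaller than its standard error. Cd40lg, the gene of its ligand, had 0.219 and 0.336 CPM in WT and 0.151 and 0.0696 CPM in Aire-KO and is named after its values were seen.

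As RPKM on the total counts of each library, the members were ranked by their mean in each genotype. In WT the order was Icosl (91.6, SD 32), Cd40 (71.5, SD 5.09), Cd274 (58.4, SD 18.1), Cd80 (51.2, SD 12.7), Pdcd1lg2 (10.2, SD 3.11), Cd86 (9.75, SD 0.0726), Ctla4 (6.60, SD 0.880), Icos (1.24, SD 0.628), Cd28 (0.744, SD 0.235) and Pdcd1 (0.585, SD 0.116). In WT, neighbours in this order had separate libraries only from Cd80 to Pdcd1lg2, from Cd86 to Ctla4 and from Ctla4 to Icos. In Aire-KO the order was Icosl (212, SD 38.1), Cd80 (75.6, SD 29.5), Ctla4 (75.0, SD 30.6), Cd40 (71.7, SD 9.17), Cd274 (39.9, SD 11.3), Pdcd1lg2 (12.9, SD 2.95), Cd86 (10.2, SD 3.24), Icos (1.71, SD 1.14), Cd28 (0.977, SD 0.224) and Pdcd1 (0.0709, SD 0.00379). There Cd80, Ctla4 and Cd40 followed each other with overlapping libraries, and so did Pdcd1lg2 and Cd86, and Icos and Cd28. Ctla4 moved from the 66.1 and 64.1 percentile of genes in WT to the 98.4 and 95.3 percentile in Aire-KO, beside 31.9 and 28.9 and then 42.2 and 40.3 for Cd28.

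The ligands together summed to 263 and 179 RPKM in WT and to 407 and 295 RPKM in Aire-KO. Icosl made up 43.4% and 38.6% of the sum in WT and 58.8% and 62.8% in Aire-KO, and Cd274 made up 27.0% and 25.5% in WT and 11.8% and 10.8% in Aire-KO. The share of Cd80 was 22.9% and 23.6% in WT and 23.7% and 18.6% in Aire-KO. The ratio of Cd80 to Cd86 was 6.14 and 4.36 in WT and 7.72 and 6.92 in Aire-KO, and that of Cd274 to Cd80 was 1.18 and 1.08 in WT and 0.496 and 0.583 in Aire-KO. The shares of Icosl and Cd274 thus did not overlap between the genotypes, and these ratios were not tested.

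**Figure D4:**
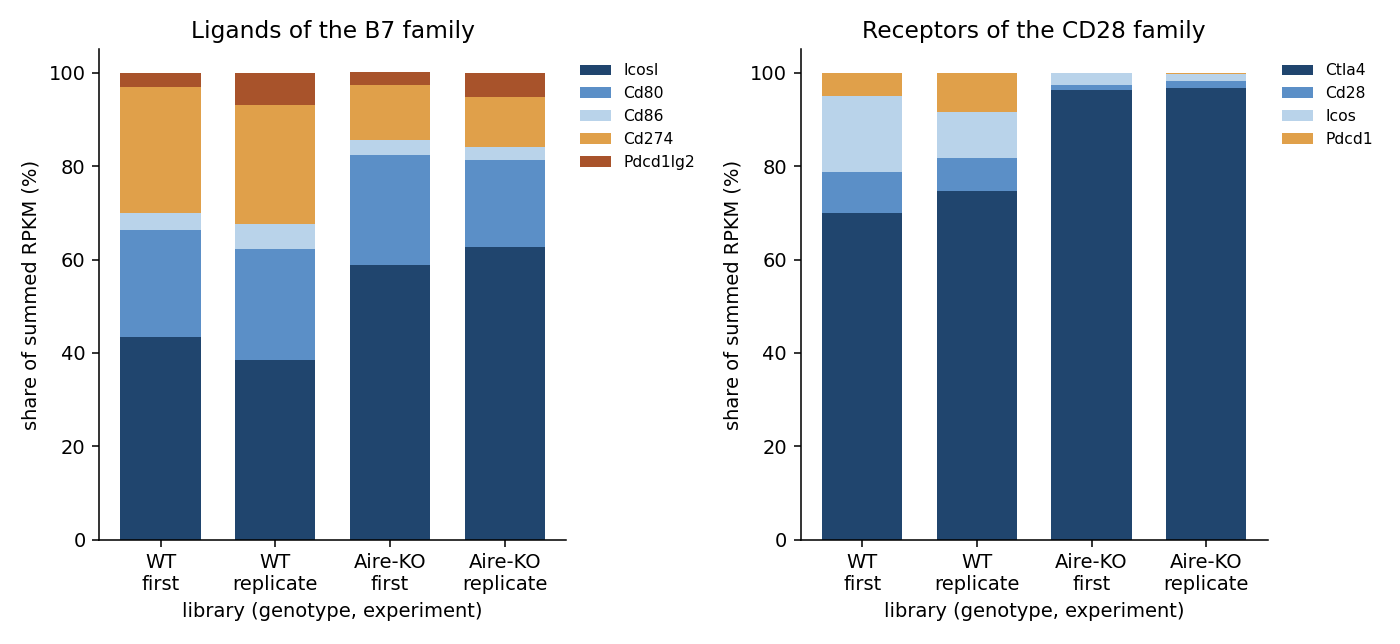
Share of the summed RPKM in percent (y) held by each ligand of the B7 family (left) and each receptor of the CD28 family (right) in the 4 libraries (x). Icosl held 38.6% to 43.4% of the ligand sum in WT and 58.8% to 62.8% in Aire-KO. Ctla4, chosen on this contrast, held 70.0% to 74.6% of the receptor sum in WT and 96.3% to 96.7% in Aire-KO.

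The choice of poly(A) site was read as a measure that did not serve to choose the members. The d3'UTR is the part of the last exon beyond a proximal poly(A) site, and the d3'UTR ratio is its reads per bp over those of the upstream part, so that library size does not enter it and a small ratio marks a preference for the short transcript. Of the 10 genes, Icos, Cd86, Pdcd1lg2 and Cd40 have an annotated d3'UTR, of 2476, 1355, 1766 and 381 bp. The last 30 bases before the transcript end are shown for the 3 genes whose ends matched the mm9 annotation, and those before the proximal site for Icos and Cd40, since the hexamer that directs cleavage is sought there. AATAAA is in capitals, and the windows were read on the strand of the gene from the mm9 genome.
Icos proximal, chr1:61054659-61054688: gatttaactacagacaacattctgctggtg
Icos distal, chr1:61057135-61057164: aacagccAATAAAtatgctttgtgagagaa
Cd86 distal, chr16:36603955-36603984, minus strand: ttcAATAAAgttttcttgaattttttcaag
Cd40 proximal, chr2:164896744-164896773: actggctaAATAAAtctgtaattatttata
Cd40 distal, chr2:164897125-164897154: agacacactcaacctttatatttacaataa
AATAAA stood in this window at the distal ends of Icos and Cd86 and at the proximal site of Cd40, and neither it nor ATTAAA at the proximal site of Icos or the distal end of Cd40. Among 43420 ends of annotated coding transcripts, 46.4% held AATAAA and 11.2% ATTAAA without it in the last 30 bases, on the strand of the transcript.

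Cd86, whose distal end holds AATAAA, had d3'UTR ratios of 2.11 and 3.98 in WT and of 2.40 and 2.66 in Aire-KO, above the median of all RefSeq IDs with a d3'UTR (0.335 to 0.436 over the libraries). The upstream part of Cd86 is 156 bp long, and only reads wholly inside a part were counted, which lowers the count of a short part. Cd40, with AATAAA in the proximal but not the distal window, had ratios of 0.505 and 0.438 in WT and of 0.475 and 0.467 in Aire-KO. These too lay above that median in every library. Whether the windows bear on the ratios was not tested. The WT libraries of Cd40 spanned the Aire-KO libraries.

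Pdcd1lg2 had small ratios, 0.211 and 0.172 in WT and 0.241 and 0.134 in Aire-KO, and the experiments differed more than the genotypes. Icos had ratios of 1.68 and 0.481 in WT and of 0.870 and 2.96 in Aire-KO, resting on 12 to 73 reads upstream. The exact 95% counting interval of the last value ran from 1.68 to 5.75, and such intervals cover counting error only. The change of the ratio, as log2 of WT over Aire-KO, was -0.66 for Icos (standard error 0.89), 0.16 for Cd86 (standard error 0.37), 0.09 for Pdcd1lg2 (standard error 0.36) and 0.00 for Cd40 (standard error 0.19). None of the 4 was called by edgeR's test of region by genotype (unadjusted p 0.495 to 0.993, adjusted p 1.0 for each), beside 0% of the 7437 IDs tested, of which 134 or 1.8% had an unadjusted p under 0.05.

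**Figure D5:**
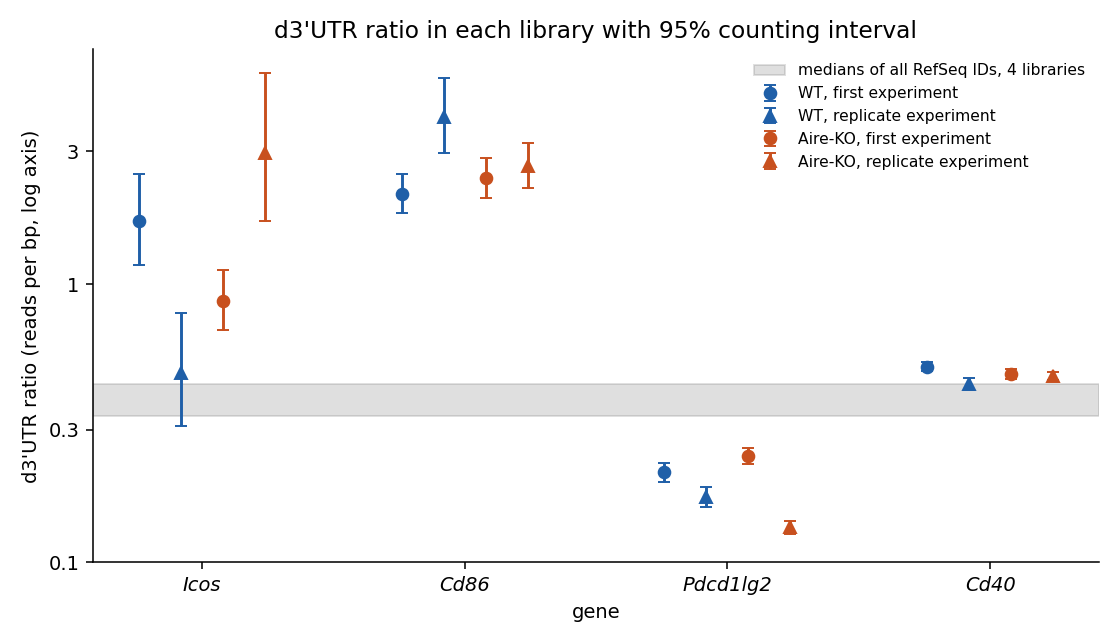
d3'UTR ratio on a log axis (y) of the 4 members with a d3'UTR (x), with 1 point for each library and its exact 95% counting interval, in blue for WT, in orange for Aire-KO, as circles for the first experiment and as triangles for the replicate experiment. The grey band spans the medians of all RefSeq IDs in the 4 libraries, 0.335 to 0.436. Icos, Cd86 and Cd40 lay above it and Pdcd1lg2 below it in every library.

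Of 23 other receptors and ligands of T cell costimulation, edgeR called 1, beside 5.84% of all IDs. The called gene is a further member of the B7 family. Vtcn1, which encodes the inhibitory ligand B7-H4, had 1.31 and 1.55 CPM in WT and 0.110 and 0.126 CPM in Aire-KO. Its log2 fold change was 3.59 (standard error 0.66, adjusted p = 0.0366 by edgeR), and without the WT library of the replicate experiment the adjusted p was 0.096, the highest over the alternatives (the lowest was 2.58e-05). The median of the 23 was 0.60. With the replicate block 9 of the 23 were called, 6 higher and 3 lower in WT, beside 16.5% and 10.4% of all IDs.

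Of 17 tested genes that carry CTLA-4 and CD28 to the cell surface or pass on their signals, edgeR called 0, beside 5.84% of all IDs. At an unadjusted p under 0.05 there were 2 (20.8% of all IDs), DESeq2 called 1 (15.1%), and the median was -0.05. The 3 with the smallest p were Trat1, an adaptor that holds CTLA-4 and the T cell receptor at the surface, Prkcq, a kinase downstream of CD28, and Pik3cd, a kinase subunit that ICOS and CD28 recruit. Trat1 had 0.589 and 0.520 CPM in WT and 0.0826 and 0.0217 CPM in Aire-KO (log2 difference 3.44 with standard error 0.97, adjusted p = 0.0949 by edgeR, 0.0362 with the replicate block, 0.00494 to 0.330 over the alternatives). Prkcq had 2.54 and 2.22 CPM in WT and 0.929 and 1.02 CPM in Aire-KO (log2 difference 1.29 with standard error 0.50, adjusted p = 0.211). Pik3cd had 6.56 and 4.85 CPM in WT and 2.53 and 3.08 CPM in Aire-KO (log2 difference 1.02 with standard error 0.44, adjusted p = 0.260 by edgeR).

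Of 18 genes that set the level of B7 ligands, edgeR called 0, beside 5.84% of all IDs. At an unadjusted p under 0.05 there were 4 (20.8% of all IDs), DESeq2 called 1 (15.1%), and the median was -0.34. Marchf1, a ubiquitin ligase that takes CD86 and MHC class II from the surface, had 2.37 and 0.898 CPM in WT and 0.20 and 0.157 CPM in Aire-KO (log2 difference 3.20 with standard error 0.75, adjusted p = 0.0615 by edgeR, 0.00647 with the replicate block, 7.18e-04 with DESeq2, up to 0.391 over the alternatives). Stat3, a transcription factor of cytokine signals, had 391 and 324 CPM in WT and 698 and 714 CPM in Aire-KO (log2 difference -0.98 with standard error 0.36, adjusted p = 0.177 by edgeR, 0.00574 with the replicate block, up to 0.736 over the alternatives). Cd83, which opposes Marchf1, had 29.2 and 28.0 CPM in WT and 60.2 and 49.8 CPM in Aire-KO (log2 difference -0.94 with standard error 0.35, adjusted p = 0.186 by edgeR, 0.00496 with the replicate block, up to 0.724 over the alternatives). With the block 8 of the 18 were called, 1 higher and 7 lower in WT, beside 16.5% and 10.4% of all IDs.

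The 5 genes whose profile over the 4 libraries lay nearest to that of Ctla4, by Euclidean distance of the centred log2(CPM + 1) values, were 4931408C20Rik (distance 0.87), Gm5086 (0.94), Tafa1 (1.07), Dusp15 (1.12) and Syn2 (1.16), among 19771 genes. With 4 libraries such a distance mostly follows the genotype and the size of the difference, and Ctla4 was chosen for both, so the names are a description. 4931408C20Rik had 6.86 and 2.37 CPM in WT and 86.0 and 30.5 CPM in Aire-KO, and Gm5086 had 3.34 and 4.04 CPM in WT and 39.4 and 24.1 CPM in Aire-KO. Tafa1, which encodes a secreted protein of the brain, had 7.37 and 7.52 CPM in WT and 66.7 and 37.0 CPM in Aire-KO. Dusp15, a phosphatase gene, had 15.6 and 11.8 CPM in WT and 113.5 and 62.4 CPM in Aire-KO, and Syn2, which encodes a protein of synaptic vesicles, had 15.9 and 19.9 CPM in WT and 130.1 and 103 CPM in Aire-KO. Of the members, Icosl was nearest to Ctla4 (distance 2.16, with 142 genes nearer), followed by Cd80 (2.84, with 871 nearer) and Cd28 (3.11, with 2030 nearer).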

How the data were processed

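The authors trimmed and joined paired reads from a polyA-selected, non-directional TruSeq library to short single-end reads. After a CASAVA filter, Bowtie placed the reads on mm9 (the submitters' processing notes give 1.0.0), and bedtools counted those wholly inside exons. The authors deposited raw counts per RefSeq ID and per transcript part, without normalization. Symbols were found for 30216 of the 30794 IDs (98.1%). All CPM, RPKM, ratio and fold change values given here were derived from these counts.

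Genotypes were compared with edgeR 4.0.16 (TMM factors 0.86 to 1.144, filterByExpr, quasi-likelihood test of genotype, Benjamini-Hochberg adjustment over all IDs, threshold 0.05), and standard errors were derived from its F values. All 14 IDs of the members passed the filter. Alternatives were DESeq2 1.42.0, other scalings and filters, 1 ID per gene, the summed part counts, the replicate block and leaving out each library. The experiment pairs the libraries, since the deviations of same-experiment libraries from their genotype means correlated at 0.52 over 19771 genes and the labels mark the second pair as a replicate. Scripts were tested on simulated data. R 4.3.3, Python 3.11.15, numpy 2.4.6, pandas 2.3.3, scipy 1.17.1 and matplotlib 3.10.9 were used. Coordinates are from GENCODE M1 on mm9, and the order of flanking genes is that of RefSeq.

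The members and gene lists were chosen with earlier results of these data known. The genes named are the members, the 3 called genes of each pathway list with the smallest p each way (or the 3 with the smallest p where none was called), the 2 most abundant markers of each list, Aire, the 5 genes nearest to Ctla4 and the genes flanking Ctla4, Icosl, Cd274 and Cd80. Markers that are called are named beside their counts. Carmil2, of the trafficking list, was not analysed here. Poly(A) windows of the members that are not printed were not analysed or are not reported here.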

Additional observations from a re-analysis of the deposited data

How the results depend on the processing

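Against 1564 called RefSeq IDs, 2525 were called with library sizes alone (median log2 fold change of all IDs 0.263, against -0.031), 4041 with DESeq2, 7205 with the replicate block and 1590 to 3814 on leaving out each library (3814 and 3275 without the Aire-KO library of the first and the replicate experiment). Members other than Ctla4 called went from 0 to 1 with library sizes alone (Pdcd1), 2 with DESeq2, 4 with the block and 0 to 2 on leaving out each library (Pdcd1 and Icosl without the Aire-KO library of the replicate experiment, Pdcd1 without that of the first). Genes called in the 3 pathway lists went from 1 to 2 with library sizes alone and without the filter, 6 with DESeq2, 18 with the block and 1 to 8 on leaving out each library (8 without the Aire-KO library of the first experiment). The log2 fold change of Ctla4 kept its sign, from -4.26 to -3.26 on leaving out each library, the latter without the Aire-KO library of the first experiment. Values that crossed 0 on leaving out a library ranged from -1.38 to 0.25 for Icos, -0.72 to 0.07 for Cd86 and -0.14 to 0.63 for Cd274, and for the d3'UTR usage change from -1.66 to 0.21 for Icos, -0.26 to 0.66 for Cd86, -0.34 to 0.51 for Pdcd1lg2 and -0.10 to 0.10 for Cd40. No d3'UTR usage call was made in any setting. Without the last exon and the d3'UTR, 2 places in the order of levels changed, where Cd80 and Cd274 swapped in WT. The cause of these changes was not tested. Calls of members with the replicate block are given beside each gene, and it changed no other call among them. With 2 libraries per genotype, the members' standard errors of 0.35 to 0.69 with genotype alone leave small differences undetectable. With the replicate block they were 0.2 to 0.35, except 0.79 for Pdcd1. Where 1 library is left out, the lone library of its genotype is assumed to vary like the others.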

Other observations

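Among costimulation genes outside the members, some were called with the experiment as a replicate block and not by edgeR with genotype alone. They are named here in part, after their values were seen, beside 26.9% of all RefSeq IDs called with the block. Lag3, an inhibitory receptor that binds MHC class II, had 9.76 and 15.1 CPM in WT and 33.8 and 25.4 CPM in Aire-KO (adjusted p = 0.13 by edgeR, 0.00446 with the block, 0.0451 with DESeq2, up to 0.423 over the alternatives). Tnfrsf14, which encodes HVEM, a ligand of the receptor BTLA, had 9.93 and 8.39 CPM in WT and 29.1 and 14.5 CPM in Aire-KO (adjusted p = 0.00587 with the block, up to 0.705). Btla had 1.57 and 2.34 CPM in WT and 0.784 and 0.130 CPM in Aire-KO (adjusted p = 0.0365 with the block, 3.69e-04 to 0.481). The ligands of TIGIT, Pvr (14.7 and 13.4 CPM in WT, 7.82 and 7.77 CPM in Aire-KO) and Nectin2 (42.8 and 69.0 CPM in WT, 29.4 and 36 CPM in Aire-KO), had adjusted p of 0.028 and 0.0196 with the block, and up to 0.657 and 0.947 over the alternatives.

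Of the genes that set the level of B7 ligands, 3 of the CD40 and NF-kB pathway that were called with the block are named in the same way. Nfkb1 was also called with the block (adjusted p = 0.017), and Rel and Rela were not (adjusted p = 0.912 and 0.435). Relb had 185 and 198 CPM in WT and 350.0 and 369 CPM in Aire-KO (adjusted p = 0.198 by edgeR, 0.00662 with the block, up to 0.667). Traf6 had 129 and 64.2 CPM in WT and 278 and 145 CPM in Aire-KO (adjusted p = 0.287 by edgeR, 0.0014 with the block, up to 0.866). Traf3 had 100.1 and 66.6 CPM in WT and 182 and 119 CPM in Aire-KO (adjusted p = 0.328 by edgeR, 0.00757 with the block, up to 0.909).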
